A study of Homo sapiens with 5 samples.

Results

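The ERK feedback genes examined here are 10 genes whose transcription is raised by the RAS-RAF-MEK-ERK cascade and whose products, in most cases, restrain it. They comprise the Sprouty genes SPRY1, SPRY2 and SPRY4, the Sprouty-related genes SPRED1 and SPRED2, the phosphatase genes DUSP4, DUSP5 and DUSP6, and the ETS transcription factor genes ETV4 and ETV5. They were taken by gene symbol from a table of 58174 genes, in which each of the 10 symbols had a single row. RNA came from Ishikawa cells, a human cell line established from an endometrial carcinoma, and was sequenced in 5 libraries. LINC00958, a long non-coding RNA, was targeted by a lentiviral short hairpin in 3 of them (sh-LINC00958), and the other 2 received a negative control (sh-NC). Both groups were infected and then selected with puromycin at 2.5 µg/ml applied 72 h after infection, per the labels' protocols. The number of hairpins is not given in the sources used here. The libraries are not tied to different cultures by any label, so the spread that the p-values rest on is that of these 5 libraries and may be technical.

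ERK is the last kinase of a relay that runs from growth factor receptors through RAS, RAF and MEK, and active ERK enters the nucleus and induces genes within minutes to hours. Some of those genes encode brakes on the same relay: Sprouty and SPRED proteins act at the level of RAS and RAF, and dual-specificity phosphatases remove the activating phosphates from ERK itself. ETV4 and ETV5 belong to the PEA3 group of ETS factors and carry the signal on to further genes. The levels of these transcripts are therefore widely used as a readout of ERK pathway output, and the pathway is often altered in endometrial carcinoma.

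The values are length-scaled transcript abundances (TPM), brought to a common total per library, so genes can be compared with each other and every value is relative to the rest of its library. The sequencing depth behind them is unknown. Between 28436 and 29411 genes had a value above 0 in sh-LINC00958 libraries, against 27896 and 28086 in sh-NC libraries. LINC00958 itself measured 67.2, 67.1 and 58.4 TPM in sh-LINC00958 libraries, against 119 and 137 TPM in sh-NC libraries, a log2 fold change of -0.99 (limma adjusted p = 0.0119) in the direction of the labels. Epithelial and endometrial markers were abundant, with PAX8, a transcription factor of the female reproductive tract, at a mean of 706 TPM in sh-LINC00958 and 812 TPM in sh-NC. Their sum lay between 2395 and 2570 TPM in sh-LINC00958 and between 2423 and 2429 TPM in sh-NC. Of the 7 tested, the keratin gene KRT18 passed and was higher (log2 fold change 0.44, limma adjusted p = 0.0211; 0.27 and not called after correction for GC content and transcript length). The keratin genes KRT8 (0.26) and KRT19 (0.36) were above sh-NC in all sh-LINC00958 libraries, and PAX8 (-0.20), EPCAM (-0.27) and SOX17 (-0.28) below, without passing. FOXA2, a factor of endometrial glands, was listed at 0 in all libraries. Summed markers of blood cells lay between 0.494 and 0.662 TPM in sh-LINC00958 and between 0.697 and 0.839 TPM in sh-NC. The summed fibroblast markers lay between 5.23 and 5.79 TPM in sh-LINC00958 and between 4.93 and 5.01 TPM in sh-NC, and the summed endothelial markers between 4.39 and 5.89 TPM in sh-LINC00958 and between 6.46 and 6.88 TPM in sh-NC. Of the listed markers of these 3 cell types, only CD3E, DCN and KDR were at 0 in all libraries. The fibroblast marker COL1A1 averaged 5.00 TPM in sh-LINC00958 and 4.51 TPM in sh-NC. The endothelial marker CDH5 averaged 1.97 TPM in sh-LINC00958 and 3.64 TPM in sh-NC, and PECAM1 1.82 and 2.06 TPM. COL1A1, CDH5 and PECAM1 were above 0 in all libraries, as was the endothelial marker VWF, and none of them passed the test. Any part of these differences in the results was not tested.

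The fitted log2 fold changes of the feedback genes were below 0 in 6 and above 0 in 4. SPRY4, SPRED1 and DUSP4 fell in sh-LINC00958 cells, to 71.4%, 52.8% and 54.8% of their mean sh-NC TPM. The other 7 did not pass the test, among them DUSP5, which stood at 216% of its sh-NC mean. In bulk RNA, fewer cells that express a gene and less of its RNA per cell cannot be told apart. All 10 passed the filter on low values, a mean of at least 1 TPM over the 5 libraries. The test was limma on log2(TPM + 1), adjusted by Benjamini-Hochberg over all 17049 genes tested, at a threshold of 0.05. By this rule 3 of the 10 were lower and 0 were higher, beside 5.68% of all genes tested that were lower, 4.12% that were higher and 9.80% that were called in either direction. At an unadjusted p under 0.05 there were 6 of the 10, of which DUSP5 was higher, beside 30.7% of all genes tested (14.3% higher and 16.3% lower). The 10 genes were chosen with earlier results of these data known, so their count is a description and was not tested. Their median log2 fold change was -0.24, beside 0.0014 over all genes tested. In 8 of the 10 the groups did not overlap, with sh-LINC00958 higher in 2 and lower in 6, beside 24.4% of all genes tested that were higher without overlap, 25.5% that were lower and 49.9% in either direction.

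**Figure D1:**
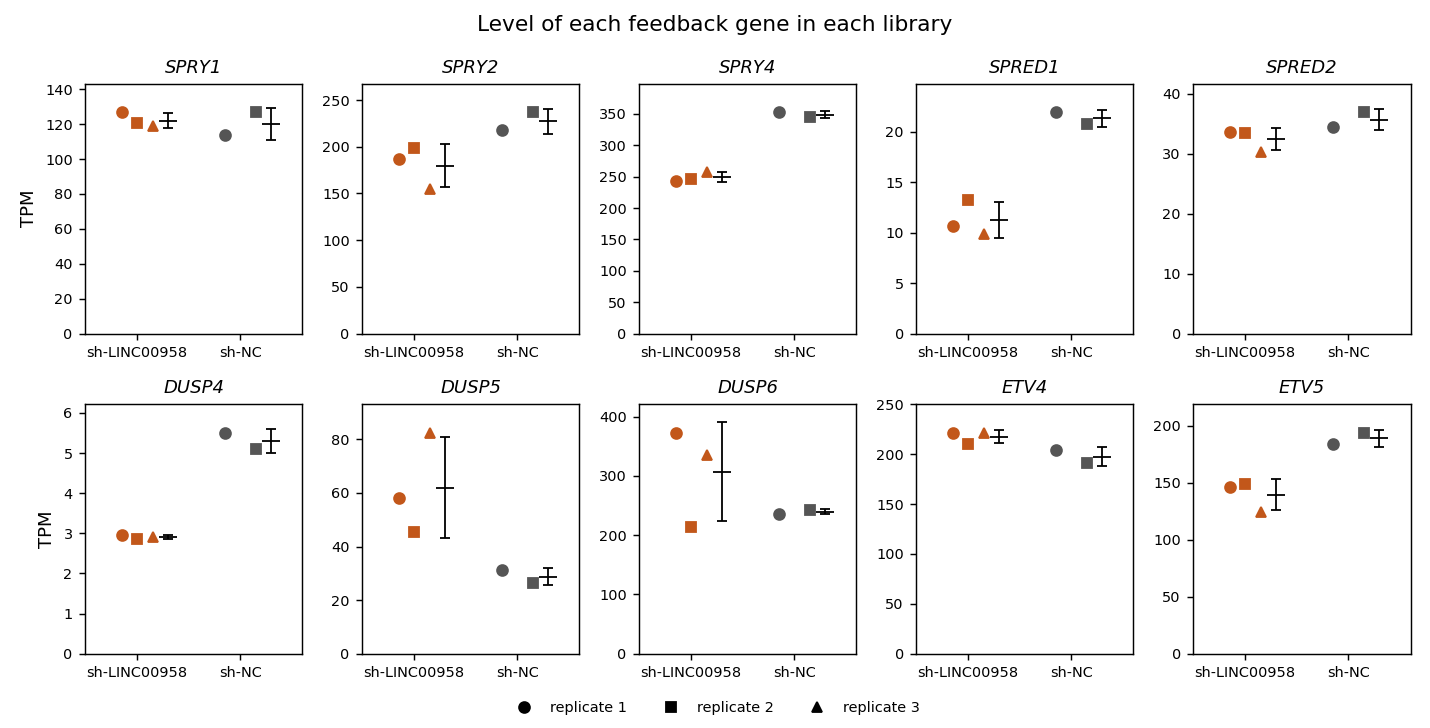
TPM of the 10 feedback genes (vertical axes, linear and starting at 0) in each of the 3 sh-LINC00958 and 2 sh-NC libraries, with symbols for the replicate number and, beside them, the group mean with its SD. SPRY4, SPRED1 and DUSP4 lie lower in all sh-LINC00958 libraries, DUSP5 lies higher in all of them, and DUSP6 in sh-LINC00958 replicate 2 lies apart at 213 TPM.

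Among the Sprouty genes, whose products bind adaptor and kinase proteins at the membrane and limit RAS and RAF activation, SPRY4 fell. It measured 243, 246 and 258 TPM in sh-LINC00958 libraries, against 352 and 345 TPM in sh-NC libraries. The libraries of each group lay close together and the groups were far apart. SPRY4 (ENSG00000187678) averaged 248.9 ± 8.11 TPM in sh-LINC00958 (SD, n = 3) and 348.7 ± 5.13 TPM in sh-NC (SD, n = 2). On log2(TPM + 1) this was a change of -0.49 (SE 0.067, 95% interval -0.65 to -0.32; limma adjusted p = 0.0183). SPRY2, the best studied family member, measured 187, 198 and 154 TPM in sh-LINC00958, against 218 and 237 TPM in sh-NC. Its groups did not overlap, with the lowest value in sh-LINC00958 replicate 3, but the log2 change of -0.34 did not pass (limma adjusted p = 0.126, 95% interval -0.64 to -0.043). SPRY1 measured 127, 121 and 119 TPM in sh-LINC00958, against 114 and 127 TPM in sh-NC. The SPRY1 groups overlapped, and the 95% interval of its log2 fold change ran from -0.18 to 0.22. The 3 Sprouty genes summed to 557, 565 and 531 TPM in sh-LINC00958 libraries, against 684 and 709 TPM in sh-NC libraries.

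SPRY4 is the member with the highest sh-NC level and one that fell, so the 250 bases before its RefSeq transcription start are shown. They lie on the minus strand at chr5:142324248-142324497 of GRCh38.p14, within the GENCODE 29 gene (chromosome 5, 142310427 to 142326455). Capitals mark GGAA, the short core that ETS factors recognise, or its reverse complement TTCC, found 2 times in this stretch.
SPRY4: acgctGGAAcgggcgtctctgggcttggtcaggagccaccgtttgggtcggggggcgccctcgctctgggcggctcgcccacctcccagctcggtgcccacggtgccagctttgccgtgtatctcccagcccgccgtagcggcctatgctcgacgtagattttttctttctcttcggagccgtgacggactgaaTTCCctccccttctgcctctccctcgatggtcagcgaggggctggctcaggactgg

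The gene SPRY4 shares its locus with other annotated transcripts, and the strand setting of the authors' counting is not given in the sources used here, so reads of overlapping genes may not be told apart. SPRY4-IT1, known as a transcript from a SPRY4 intron and looked up after values were seen, measured 26.2, 29.4 and 26.4 TPM in sh-LINC00958, against 43.3 and 45.2 TPM in sh-NC. SPRY4-IT1 was also lower (log2 fold change -0.68, limma adjusted p = 0.0192). The antisense gene AC010317.1 overlaps the GENCODE 29 start of SPRY4, but not the RefSeq stretch shown above. It measured 3.59, 4.23 and 4.14 TPM in sh-LINC00958, against 5.65 and 3.91 TPM in sh-NC.

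SPRED1 and SPRED2 encode membrane proteins that bring the RAS inactivator neurofibromin to RAS. SPRED1 (ENSG00000166068) lies on the plus strand at chr15:38252326-38357249 in GENCODE 29. SPRED1 measured 10.7, 13.2 and 9.81 TPM in sh-LINC00958 libraries, against 21.9 and 20.7 TPM in sh-NC libraries. The highest sh-LINC00958 library, replicate 2, was still well under both sh-NC libraries. The SPRED1 change was -0.87 on the log2 scale (SE 0.146, 95% interval -1.23 to -0.52; limma adjusted p = 0.0273). SPRED2 measured 33.6, 33.5 and 30.3 TPM in sh-LINC00958, against 34.4 and 36.9 TPM in sh-NC. The SPRED2 groups were narrowly separate and the log2 change of -0.13 did not pass (limma adjusted p = 0.391, 95% interval -0.37 to 0.099). SPRED1 made up 24.1%, 28.4% and 24.5% of the summed SPRED TPM in sh-LINC00958 libraries, against 38.9% and 35.9% in sh-NC libraries.

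Transcript GC content went with fold change across all genes tested, and SPRED1 is the member this touches most. Its transcripts hold 40.7% GC, and the 4250 genes with the lowest content, up to 43.0%, had a median log2 fold change of -0.29. In the 4250 genes with the highest content, from 56.4% up, which include ETV4 at 60.3% GC, the median was 0.18. With a trend on GC content and transcript length subtracted from each library, the SPRED1 log2 fold change was -0.63 (limma adjusted p = 0.0487), SPRY4 stood at -0.60 (0.0131) and DUSP4 at -0.76 (0.0360), so all 3 were still called.

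The stretches before RefSeq starts of the SPRED pair are shown because 1 gene of the pair was called and the other was not. The SPRED1 stretch lies on the plus strand at chr15:38252586-38252835 of GRCh38.p14 and holds 78.4% GC. The stretch of the upstream SPRED2 start lies on the minus strand at chr2:65432600-65432849 and holds 58.8% GC. Capitals again mark GGAA or TTCC, found 3 times before SPRED1 and 4 times before SPRED2.
SPRED1: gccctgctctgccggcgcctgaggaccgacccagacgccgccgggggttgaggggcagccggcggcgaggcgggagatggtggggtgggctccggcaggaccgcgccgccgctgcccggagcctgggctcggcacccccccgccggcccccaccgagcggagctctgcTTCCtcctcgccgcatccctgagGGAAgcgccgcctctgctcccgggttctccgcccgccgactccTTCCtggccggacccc
SPRED2: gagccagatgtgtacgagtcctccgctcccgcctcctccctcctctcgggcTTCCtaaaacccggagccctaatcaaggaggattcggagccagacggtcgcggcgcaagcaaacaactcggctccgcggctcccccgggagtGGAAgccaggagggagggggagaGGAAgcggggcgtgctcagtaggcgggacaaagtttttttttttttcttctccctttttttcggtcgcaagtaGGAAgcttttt

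RefSeq promoter windows of 300 bases (250 before and 50 after a start, GRCh38.p14) were matched for 6 members, with 10 start sites in all. No window of this length was available for DUSP4, DUSP5, ETV4 and ETV5, so the motif counts leave them out. Every one of the 10 windows held GGAA on some strand, as did 95.5% of all 35116 windows. The longer ETS core CCGGAA was in 2 of them, before the second listed start of SPRY1 (from position -67) and the first of SPRY2 (from position -142), beside 17.2% of all windows, and it overlaps the full ETS consensus CCGGAAGT, which was in 0 of the 10 and in 4.14% of all. The AP-1 motif TGANTCA, which FOS and JUN proteins bind, was in the window of the second SPRED2 start and in 7.71% of all windows. The capicua octamers TGAATGAA and TGAATGGA, bound by a repressor that ERK inactivates, were in 0 of the 10 and in 1.65% and 1.03% of all. The cyclic AMP response element TGACGTCA was in 0 of the 10 and in 1.85% of all. Both strands were searched for each motif. A match here is a description of letters, not of binding.

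Among the phosphatase genes DUSP4 was called lower, and DUSP5 and DUSP6 did not pass. DUSP4 encodes a nuclear phosphatase of ERK, JNK and p38, and it was the least abundant of the 10. It is ENSG00000120875, on the minus strand at chr8:29333064-29350668. DUSP4 measured 2.95, 2.85 and 2.92 TPM in sh-LINC00958 libraries, against 5.51 and 5.10 TPM in sh-NC libraries. The sh-LINC00958 libraries were nearly equal and both sh-NC libraries were higher. The change was -0.69 on the log2 scale (SE 0.131, 95% interval -1.01 to -0.37; limma adjusted p = 0.0336). At this level the added 1 TPM shrinks the fold, and with a pseudocount of 0.1 the log2 fold change was -0.85. With a pseudocount of 5 it was -0.38, and both values were called.

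DUSP5, a nuclear phosphatase specific for ERK, was the only member with a fitted change above 1 on the log2 scale, and it did not pass. It lies on the plus strand at chr10:110497838-110511544 (ENSG00000138166). DUSP5 measured 58.1, 45.4 and 82.5 TPM in sh-LINC00958 libraries, against 31.1 and 26.4 TPM in sh-NC libraries. All sh-LINC00958 libraries were above both sh-NC libraries, but they were spread widely, with a mean of 62.0 ± 18.9 TPM in sh-LINC00958 (SD, n = 3) against 28.8 ± 3.30 TPM in sh-NC (SD, n = 2). The DUSP5 difference was 1.04 on the log2 scale (SE 0.246, 95% interval 0.44 to 1.65; limma adjusted p = 0.0526). Its processed pseudogenes DUSP5P1 and DUSP5P2 had at most 0.359 TPM in any library.

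DUSP6, the cytoplasmic ERK phosphatase, measured 373, 213 and 335 TPM in sh-LINC00958 libraries, against 236 and 242 TPM in sh-NC libraries. Replicates 1 and 3 of sh-LINC00958 were above both sh-NC libraries and replicate 2 was below them. Over all libraries DUSP6 differed by 0.32 on the log2 scale (limma adjusted p = 0.402, 95% interval -0.25 to 0.89). Without sh-LINC00958 replicate 2 it was 0.56 and was called higher (limma adjusted p = 0.0229), as was DUSP5 (1.24, limma adjusted p = 0.0294). DUSP5 was also lowest in that library among the sh-LINC00958 libraries. Without sh-LINC00958 replicate 1 or replicate 3 neither DUSP5 nor DUSP6 was called. DUSP6 was then at 0.16 and 0.24 (limma adjusted p = 0.695 and 0.612) and DUSP5 at 1.07 and 0.82 (limma adjusted p = 0.138 and 0.0725). Without sh-NC replicates 1 and 2 DUSP6 was at 0.30 and 0.34 and DUSP5 at 1.16 and 0.93. The antisense gene AC024909.3 overlaps the DUSP6 start and measured 36.1, 37.3 and 20.1 TPM in sh-LINC00958, against 22.3 and 19.0 TPM in sh-NC. The 3 phosphatase genes summed to 434, 262 and 420 TPM in sh-LINC00958 libraries, against 273 and 274 TPM in sh-NC libraries.

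ETV5 and ETV4 stood on opposite sides of 0. ETV5 measured 146, 149 and 124 TPM in sh-LINC00958 libraries, against 184 and 194 TPM in sh-NC libraries. The ETV5 groups did not overlap, and its log2 fold change of -0.44 (95% interval -0.68 to -0.19) missed the threshold by little (limma adjusted p = 0.0507). It was called lower under 6 of 12 other settings that kept all libraries, with an adjusted p between 0.0296 and 0.136 over the 12. ETV4 measured 222, 210 and 221 TPM in sh-LINC00958 libraries, against 204 and 191 TPM in sh-NC libraries. The ETV4 groups did not overlap, its log2 difference of 0.14 did not pass (limma adjusted p = 0.243, 95% interval -0.035 to 0.31), and it was -0.060 once GC content and length were corrected for. DHX8, on the other strand, spans the whole of ETV4 and measured 53.0, 55.7 and 53.1 TPM in sh-LINC00958, against 47.7 and 51.5 TPM in sh-NC. ETV5 overlaps DGKG and ETV5-AS1, both of which had at most 2.52 TPM.

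**Figure D2:**
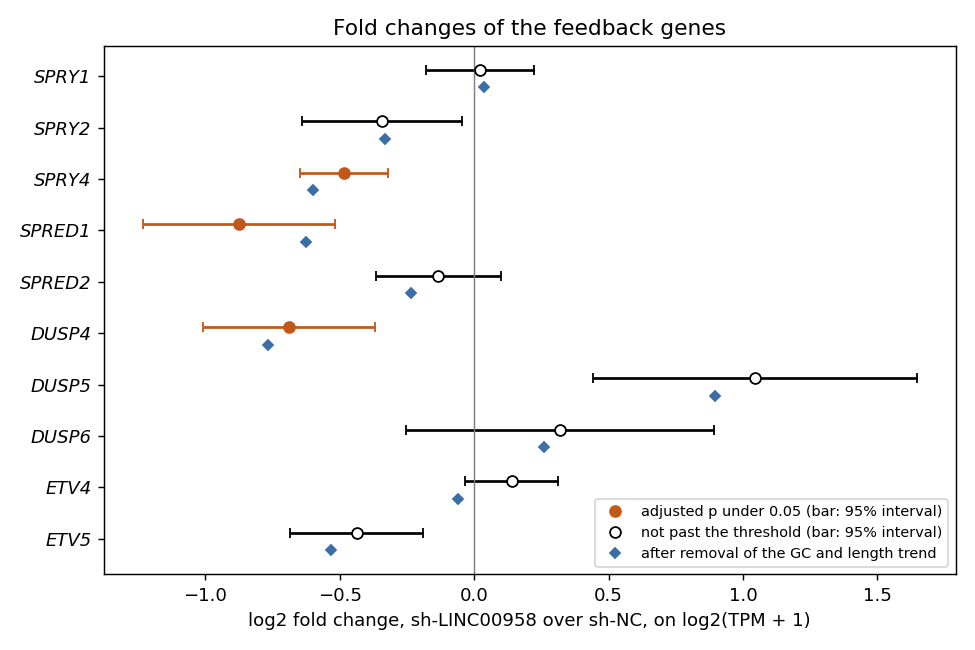
Log2 fold changes of sh-LINC00958 over sh-NC on log2(TPM + 1) for the 10 feedback genes, with 95% intervals from limma, filled where the adjusted p was under 0.05, and as diamonds the values after correction for GC and length. SPRED1, DUSP4 and SPRY4 are filled at -0.87, -0.69 and -0.49, and DUSP5 at 1.04 is open.

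In order of level, both groups had SPRY4, DUSP6, SPRY2, ETV4, ETV5 and SPRY1 above 100 TPM and DUSP4 last. In sh-LINC00958 DUSP6 came first with a mean of 307 TPM, but its range of 213 to 373 TPM took in that of SPRY4 at 243 to 258 TPM. ETV4, SPRY2 and ETV5 followed in sh-LINC00958 with ranges that did not overlap their neighbours', except that ETV5 reached down to SPRY1 at its lowest. In sh-NC the order began with SPRY4 at a mean of 349 TPM, clear of DUSP6 at 239 TPM. DUSP6 and SPRY2 overlapped in sh-NC, as did ETV4 and ETV5. DUSP5 ranked above SPRED2 in sh-LINC00958, at 62.0 and 32.5 TPM, and below it in sh-NC, at 28.8 and 35.7 TPM.

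Related genes were also compared within each library, as the difference of their log2(TPM + 1) values, which depends little on the scaling of the library. SPRED1 minus SPRED2 was -1.57, -1.27 and -1.53 in sh-LINC00958 libraries, against -0.63 and -0.80 in sh-NC libraries. ETV5 minus ETV4 was -0.60, -0.50 and -0.82 in sh-LINC00958 libraries, against -0.15 and 0.023 in sh-NC libraries. In these pairs the groups did not overlap, and the group means differed by -0.74 for the SPRED pair and -0.58 for the ETV pair (exact two-sided permutation p = 0.1 each, the smallest that 3 libraries against 2 allow). After correction for GC and length the SPRED difference was -0.39 and the ETV difference -0.47.

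The phosphatase pairs and the other Sprouty pairs follow. DUSP4 minus DUSP6 averaged -6.26 ± 0.41 in sh-LINC00958 (SD, n = 3) and -5.25 ± 0.092 in sh-NC (SD, n = 2), a difference of -1.01. The DUSP4 minus DUSP6 difference lay between -1.17 and -0.70 over 5 other settings that kept all libraries. DUSP5 minus DUSP6 averaged -2.29 ± 0.33 in sh-LINC00958 and -3.02 ± 0.19 in sh-NC, a difference of 0.72, and SPRY1 minus SPRY2 had a difference of 0.37 (exact permutation p = 0.2 for all 3 pairs). For SPRY4 minus SPRY2 the groups overlapped, with a difference of -0.14 (exact permutation p = 0.5). That difference was -0.27 after correction for GC and length. It was -0.095, -0.060 and -0.28 without sh-LINC00958 replicates 1, 2 and 3, and -0.068 and -0.22 without sh-NC replicates 1 and 2. Over the 6 pairs the smallest adjusted p was 0.24, so none passed in a design that could not have passed.

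**Figure D3:**
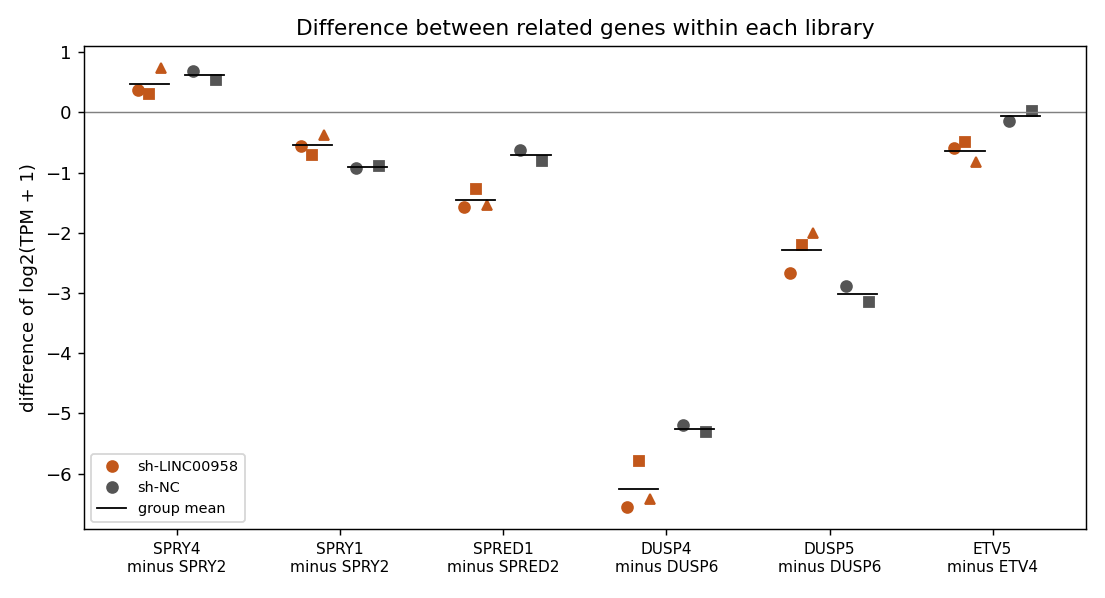
Difference of log2(TPM + 1) between related feedback genes within each library, for 6 pairs, with 3 sh-LINC00958 and 2 sh-NC points (symbols by replicate number) and the group mean as a line. The groups are apart for 5 pairs, among them SPRED1 minus SPRED2, and overlap for SPRY4 minus SPRY2.

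The 3 calls depended on which libraries were in the fit. Without sh-LINC00958 replicate 2 they were kept and ETV5 was called lower too. Without any of the other 4 libraries none of the 3 was called, although the values hardly moved. The limma adjusted p of SPRY4 was 0.0804 without sh-LINC00958 replicate 1, 0.0510 without replicate 3, and 0.119 and 0.124 without sh-NC replicates 1 and 2. Over the same 4 omissions that of SPRED1 lay between 0.0659 and 0.142 and that of DUSP4 between 0.0805 and 0.162. Over all 5 omissions the log2 fold change lay between -0.51 and -0.47 for SPRY4, between -0.99 and -0.79 for SPRED1 and between -0.74 and -0.64 for DUSP4. Exact two-sided permutation tests gave p = 0.1 for each of these 3 genes, the smallest possible.

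**Figure D4:**
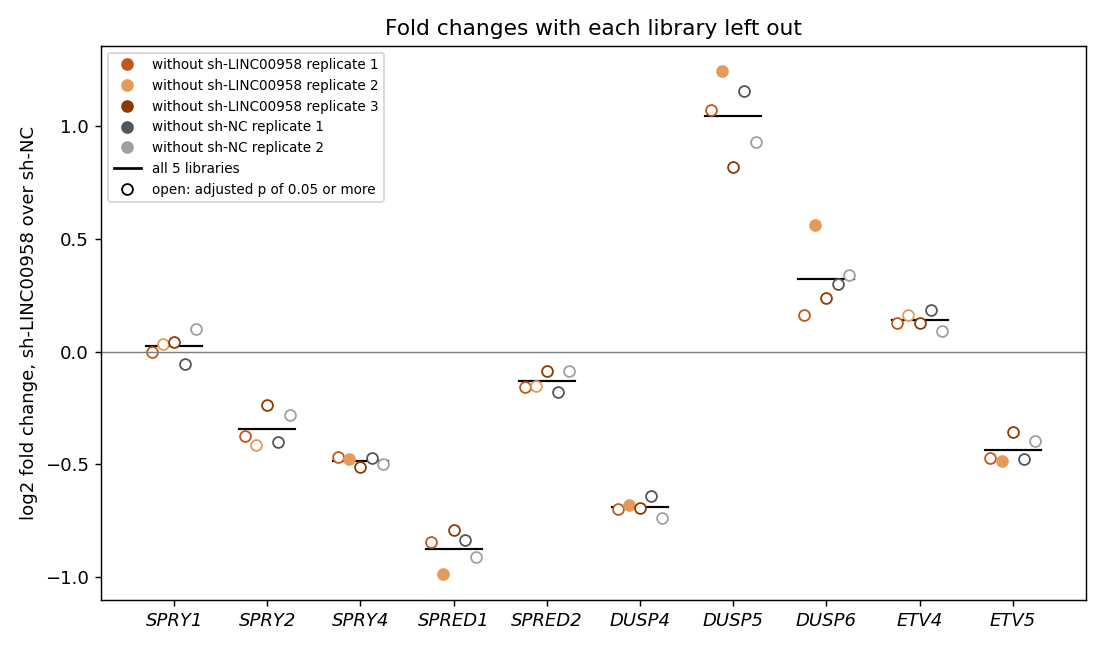
Log2 fold changes of sh-LINC00958 over sh-NC for each feedback gene with all 5 libraries (lines) and with each library left out in turn (points, filled where the limma adjusted p was under 0.05). Filled points occur without sh-LINC00958 replicate 2 alone, for SPRY4, SPRED1, DUSP4, DUSP5, DUSP6 and ETV5.

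Among the relatives of these genes, 1 passed the test, beside 9.80% of all genes tested (30.7% at an unadjusted p under 0.05). SPRY3 and ETV1, at means of 2.45 and 3.01 TPM in sh-LINC00958 and 2.56 and 2.94 TPM in sh-NC, did not pass, and SPRED3 was too low to test. Of 6 other MAP kinase phosphatases tested, 0 passed in limma, with log2 fold changes between -0.21 and 0.46 and 1 at an unadjusted p under 0.05. DUSP8, which acts on JNK and p38, had the smallest p of these (1.25 ± 0.18 TPM in sh-LINC00958 and 0.636 ± 0.12 TPM in sh-NC, SD, limma adjusted p = 0.145). Of 8 atypical dual-specificity phosphatases, which lack the kinase-binding domain, DUSP3 alone passed. DUSP3, also called VHR, rose to 32.2, 31.4 and 30.0 TPM in sh-LINC00958 libraries, against 12.6 and 13.0 TPM in sh-NC libraries (log2 fold change 1.22, limma adjusted p = 0.00597).

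In the cascade that drives the feedback genes, 2 of 18 genes fell and 1 rose, beside 5.68% and 4.12% of all genes tested. NRAS, a RAS GTPase, fell to 27.8, 33.7 and 24.1 TPM in sh-LINC00958 libraries, against 94.5 and 97.6 TPM in sh-NC libraries (log2 fold change -1.73, limma adjusted p = 0.00762). FRS2, the docking protein of FGF receptors, fell (-0.78), and MAPK3, which encodes ERK1, rose (0.48). The median of the list was -0.11. After correction for GC and length NRAS was still called (-1.34), while FRS2 (-0.52) and MAPK3 (0.27) were not. Of 12 other ERK pathway inhibitors the adaptor gene SH2B3 fell (-0.52) and LZTR1, which promotes RAS degradation, rose (0.59; 0.39 and not called after the same correction). This inhibitor list had a median log2 fold change of -0.30, with 7 lower and 2 higher at an unadjusted p under 0.05. Of all genes tested, 16.3% were lower and 14.3% higher at that p, and the median was 0.0014. Among the 4250 genes with the lowest GC content the median was -0.29. Of 6 genes for Sprouty partner proteins the kinase gene TESK1 rose (0.63), as did SIAH2, a ubiquitin ligase that targets Sprouty proteins (0.44; 0.20 and not called after the correction).

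Other genes that ERK induces went both ways, with 3 rises and 1 fall among 12 tested and a median log2 fold change of 0.18. Over all genes tested the median was 0.0014, with 4.12% called higher and 5.68% lower. Among the 4250 genes with the highest GC content the median was also 0.18. FOSL1, an AP-1 subunit, rose to 24.9, 20.3 and 32.4 TPM in sh-LINC00958 libraries, against 6.23 and 9.79 TPM in sh-NC libraries (limma adjusted p = 0.0248). Like DUSP5, FOSL1 was above both sh-NC libraries in all sh-LINC00958 libraries, and like DUSP5 and DUSP6 it was lowest of its group in replicate 2. FOS (1.16) and IER3 (0.84) rose as well, IER3 without a call after correction for GC and length (0.65, limma adjusted p = 0.0566). CCND1, the cyclin D1 gene, fell to 409, 450 and 403 TPM in sh-LINC00958 libraries, against 697 and 707 TPM in sh-NC libraries (-0.74, limma adjusted p = 0.0103). EGR1 averaged under 1 TPM in both groups and was not tested.

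Among 15 tested ETS factors and capicua partners outside the PEA3 group, GABPA (-0.99) and ELK3 (-0.62) fell and 0 rose by limma. The share of all genes tested was 5.68% that fell and 4.12% that rose. At an unadjusted p under 0.05 there were 5 lower and 3 higher, beside 16.3% and 14.3% of all genes tested. ELK3, an ERK-responsive partner of serum response factor, averaged 10.1 ± 0.802 TPM in sh-LINC00958 (SD, n = 3) and 16.1 ± 0.392 TPM in sh-NC (SD, n = 2). GABPA was not called after correction for GC and length (-0.51, limma adjusted p = 0.0775). CIC, which encodes the capicua repressor of ETV4, ETV5 and DUSP6, averaged 14.7 ± 1.76 TPM in sh-LINC00958 (SD, n = 3) and 13.9 ± 0.69 TPM in sh-NC (SD, n = 2), and is named although the rule for named genes does not take it.

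**Figure D5:**
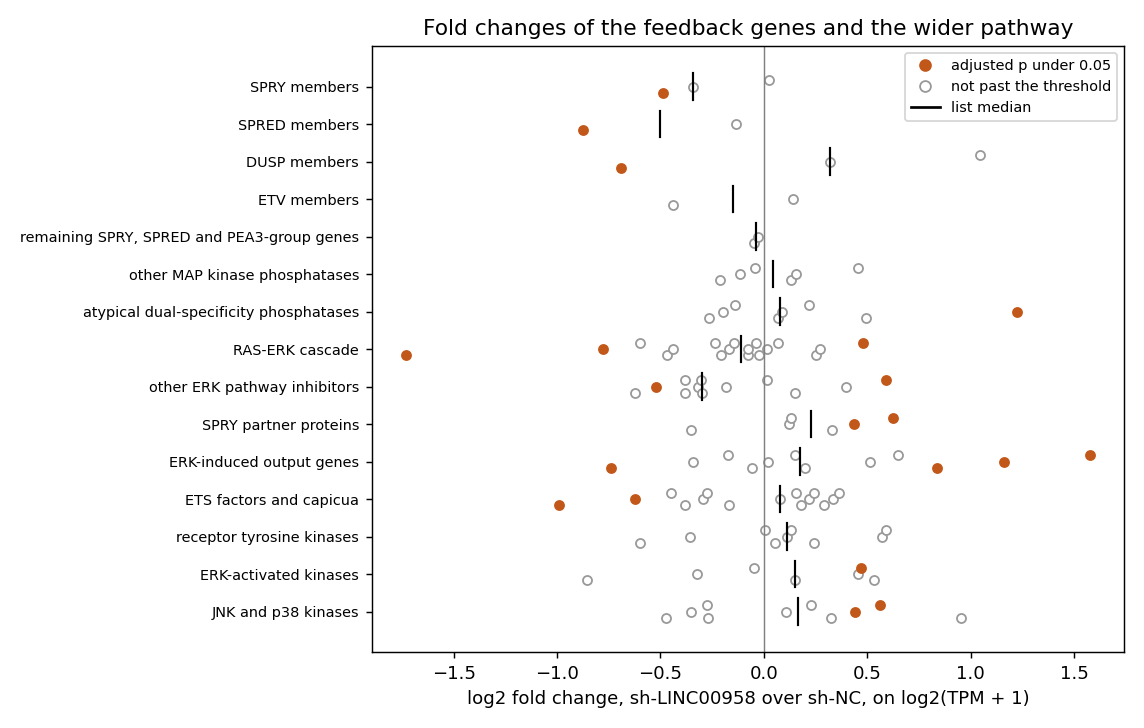
Log2 fold changes of sh-LINC00958 over sh-NC on log2(TPM + 1) for the tested genes of each list, one point per gene, filled where the limma adjusted p was under 0.05, with the list median as a line. The 4 feedback groups stand at the top, and filled points lie on both sides of 0, from NRAS at -1.73 to FOSL1 at 1.58.

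Outside these lists, the genes most like each called member were found by profile. The measure was the root mean square distance between log2(TPM + 1) profiles over the 5 libraries, each centred on its own mean. Genes picked in this way resemble the member in fold change by the choice itself, so their values are a description. For SPRY4 these were H3F3B (distance 0.0084), RBM11 (0.021) and TIGD7 (0.022). RBM11 itself was not called (log2 fold change -0.47, limma adjusted p = 0.0690). After correction for GC and length RBM11 was at -0.051 and TIGD7 was not called (-0.41, limma adjusted p = 0.0598), while H3F3B still was (-0.59). H3F3B, a histone H3.3 gene, measured 256, 254 and 269 TPM in sh-LINC00958 libraries, against 368 and 360 TPM in sh-NC libraries. For SPRED1 they were NUCKS1 (0.023), the read-through gene RPL17-C18orf32 (0.034), whose reads may belong to its component genes, and ARMC1 (0.038). For DUSP4 they were GBX2 (0.031), SPSB1 (0.035) and OIP5 (0.036).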

How the data were processed

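RNA-seq of 5 Ishikawa libraries (3 sh-LINC00958, 2 sh-NC) was analysed from 1 table of TPM values deposited by the authors, with 1 column per library matched to the sample titles. The submitters' processing notes name StringTie 1.3.3b, HISAT2 2.0, Trimmomatic 0.36, FastQC 0.11.2 and the build GRCh38; the annotation release is not given in the sources used here. TPM keeps no read depth, so no counting interval can be given. No pair of libraries held identical values.

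Genes with a mean of at least 1 TPM (17049) were fitted by limma 3.58.1 (R 4.3.3, moderated variances with a mean-variance trend) after taking log2(TPM + 1). The test was two-sided, p-values were adjusted across these genes by Benjamini and Hochberg's method, and 0.05 was the threshold. Fold changes on this scale understate the change of low genes. Exact permutation tests and summaries used Python 3.11.15. The fit was tested on simulated data. Gene positions, transcript GC content and length came from GENCODE 29; the GC and length trend was fitted per library with splines of 5 degrees of freedom and subtracted, with values for 99.7% of genes tested. Promoter sequences came from RefSeq (GRCh38.p14).

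The 10 members and all gene lists were chosen with earlier results of these data known. Named were all members, LINC00958, up to 5 called genes of each other pathway list with the smallest p (or the 1 with the smallest p where none passed) and the 3 most similar profiles per called member; other names account for counts or were chosen after values were seen. The alternatives were other pseudocounts, filters, scalings and eBayes settings, library weights, a replicate block, GC and length removal, and leaving out each library. A gene of the cascade list is not reported here and was left out of that list's counts.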

Additional observations from a re-analysis of the deposited data

How the results depend on the processing

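Adjusted p-values here are from limma. The signs of SPRY2, SPRY4, SPRED1, SPRED2, DUSP4, DUSP5, DUSP6, ETV5 and all 6 within-library differences were the same under every setting run, and median-ratio scaling and quantile normalization moved the median of all genes by under 0.02 on the log2 scale. Replicate numbers were not taken as pairs. Deviations of same-numbered libraries correlated at 0.0013 and 0.050. With 2 sh-NC libraries the deviations mirror each other, so these values cannot decide whether the numbers pair the libraries. With the number as a block, sh-LINC00958 replicate 3 has no partner, and 0 genes were higher, 2 lower and 0 members lower; log2 fold changes were -0.51 (SPRY4), -0.79 (SPRED1), -0.69 (DUSP4) and -0.92 (LINC00958), none called. With the replicate block and the GC and length removal together, 0 genes were higher, 1 lower and 0 members lower, with -0.62, -0.57, -0.76 and -0.97 for the same genes and -0.046 for ETV4. That removal alone gave 323 genes higher and 400 lower and turned ETV4 to -0.060. Without a filter 207 genes were higher and 269 lower, and 1 member was lower, since SPRED1 (-0.87, adjusted p = 0.0691) and DUSP4 (-0.69, adjusted p = 0.0956) lost their calls among more genes tested. Without the trend 371 and 518 genes were called, and with library quality weights 1428 and 1851.

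A mean of at least 5 TPM left DUSP4 untested. With that filter and with library weights 1 member was higher, DUSP5 (1.04 and 1.05). ETV5 was called lower with a pseudocount of 5 (-0.43), that filter (-0.44), median-ratio scaling (-0.43), quantile normalization (-0.42), robust eBayes (-0.44) and library weights (-0.41). With 1 library left out, genes called higher ranged from 10 to 905 and lower from 6 to 1491, members called higher from 0 to 2 and lower from 0 to 4. Log2 fold changes then lay from -1.09 to -0.89 for LINC00958, -0.51 to -0.47 for SPRY4, -0.99 to -0.79 for SPRED1, -0.74 to -0.64 for DUSP4, 0.82 to 1.24 for DUSP5, 0.16 to 0.56 for DUSP6, -0.48 to -0.36 for ETV5 and -0.054 to 0.10 for SPRY1. SPRY3 changed sign with the block (0.017), the GC and length removal (0.27) and both (0.31), and lay from -0.14 to 0.043 with 1 library left out. Of 27 other named genes called, 11 lost the call with the GC and length removal (SPRY4-IT1 has no GC value and was left as it was), 9 without the trend, 15 without a filter, 27 with either block and 1 to 27 with a library left out. The causes were not tested. The unknown depth limits what can be said of low genes such as DUSP4.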

Other observations

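Receptor and stress kinase genes that lie upstream of or beside the ERK pathway were also counted. For comparison, 4.12% of all genes tested rose and 5.68% fell by limma. At an unadjusted p under 0.05 these shares were 14.3% and 16.3%. Of 9 receptor tyrosine kinase genes tested, 0 passed in limma, with 1 higher and 2 lower at an unadjusted p under 0.05. MET, the hepatocyte growth factor receptor gene, had the smallest p, at 3.64, 3.76 and 4.52 TPM in sh-LINC00958 libraries, against 6.66 and 6.38 TPM in sh-NC libraries (log2 fold change -0.60, limma adjusted p = 0.0526). PDGFRA, PDGFRB, KIT and FGFR2 averaged under 0.1 TPM in both groups. Of 7 kinase genes that ERK activates, RPS6KA4, which encodes MSK2, rose (0.47; 0.27 and not called after correction for GC and length). Of 10 tested JNK and p38 kinase genes, the p38 genes MAPK12 (0.44) and MAPK13 (0.56) rose and 0 fell by limma (4 higher and 2 lower at an unadjusted p under 0.05), and neither was called after the same correction (0.24 and 0.41). MAPK13 measured 66.7, 52.5 and 57.0 TPM in sh-LINC00958 libraries, against 37.7 and 41.0 TPM in sh-NC libraries.

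The summed TPM of all 10 feedback genes was 1324 ± 86.2 TPM in sh-LINC00958 (SD, n = 3) and 1413 ± 17.3 TPM in sh-NC (SD, n = 2), with 1403, 1232 and 1337 TPM in sh-LINC00958 libraries, against 1401 and 1425 TPM in sh-NC libraries. The groups overlapped in this sum.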
